A study of Mus musculus with 6 samples.

Results

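Genes of amino acid catabolism were described in regenerating liver of Aqp5-/- and Aqp5+/+ mice: 45 genes listed by name, all 45 of which were found among the 16858 genes of the count table and all 45 of which passed the filter on low counts that left 12353 genes. They were grouped by the amino acid they degrade, from tyrosine to the alanine and aspartate aminotransferases. The exception is a group of 8 enzymes of aromatic amines and aldehydes, which includes Ddc and is not defined by an amino acid degraded. RNA of whole liver was sequenced at 72 h after partial hepatectomy (PHx) that removed 70% of the liver, with 3 libraries from Aqp5-/- mice and 3 from Aqp5+/+ mice. Aqp5 encodes aquaporin 5, a channel for water and hydrogen peroxide. The Aqp5-/- mice were made by CRISPR/Cas9 in fertilized eggs, so that the gene is lost in every cell and not only in the liver, the Aqp5+/+ mice were wild-type C57BL/6, and both genotypes underwent PHx. The study's methods give an age of 3 months and male sex for mice that underwent PHx. Nothing in the labels says that each library came from a separate mouse, and p-values therefore reflect only how far these libraries spread.

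The liver is the main site at which the carbon of most amino acids is broken down. Tyrosine is degraded in a chain that opens with transamination by tyrosine aminotransferase (Tat) and ends with fumarate and acetoacetate, and loss of its later enzymes causes the human disorders alkaptonuria and tyrosinemia. Tryptophan, histidine, lysine and methionine each have a chain of their own in hepatocytes, and several of the opening enzymes respond to glucocorticoids and glucagon. Aromatic amino acids also give amines, which are made by a decarboxylase that needs vitamin B6. The enzymes that clear these amines and their products include monoamine oxidases, alcohol dehydrogenases and aldehyde oxidases.

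Library totals ranged from 11293358 to 15550006 counts in Aqp5-/- and from 7130831 to 13526632 counts in Aqp5+/+ livers, and 15 of 16 hepatocyte markers were found, at 130154 to 133444 CPM in the Aqp5-/- libraries and 86299.7 to 150693 CPM in the Aqp5+/+ libraries in sum. Levels are CPM, the counts of a gene as a share of all counts of the library, after scaling by TMM, a trimmed mean of ratios that assumes most genes are alike. All 4 Y-linked genes examined were near 0 in every Aqp5-/- library. Their sums were 0.869 to 1.19 CPM in the Aqp5-/- libraries and 287 to 471 CPM in the Aqp5+/+ libraries. The Aqp5-/- values conflict with the male sex that the study's methods give for mice that underwent PHx. Genotype and this sex-linked difference cannot be told apart in any result below. Liver genes with male-biased expression summed to 1038 to 2586 CPM in the Aqp5-/- libraries and 12328 to 14268 CPM in the Aqp5+/+ libraries, and 9 of 18 fell by edgeR. Those with female-biased expression summed to 2402 to 5229 CPM in the Aqp5-/- libraries and 202 to 392 CPM in the Aqp5+/+ libraries, and 11 of 21 tested rose. Of 12 tested Kupffer cell and macrophage markers 11 had higher levels in all 3 Aqp5-/- libraries than in any Aqp5+/+ library. This was 91.7% of them, beside 6.93% of all genes tested, and by edgeR 0 of the 12 rose or fell. Their sums were 893 to 1854 CPM in the Aqp5-/- libraries and 409.5 to 715 CPM in the Aqp5+/+ libraries. Neutrophil markers summed to 30.0 to 101 CPM in the Aqp5-/- libraries and 3.30 to 23.9 CPM in the Aqp5+/+ libraries, with 1 of 6 tested rising by edgeR. Erythroid markers summed to 48.1 to 83.8 CPM in the Aqp5-/- libraries and 68.8 to 147 CPM in the Aqp5+/+ libraries, with 1 of 4 tested falling by edgeR. None of 8 endothelial and none of 9 lymphocyte markers rose or fell by edgeR. The median log2 fold changes of these lists, Aqp5-/- over Aqp5+/+, were -0.54 and -1.11. Aqp5-/- replicate 3 stood apart by cholangiocyte and stellate cell markers, which reached sums of 418 and 2793 CPM there. Aqp5+/+ replicate 2 had the smallest total. Proliferation markers summed to 489 to 716 CPM in the Aqp5-/- libraries and 93.7 to 559 CPM in the Aqp5+/+ libraries, with the lowest sum in Aqp5+/+ replicate 2. By edgeR 0 of these 10 markers rose or fell. Their log2 fold changes, Aqp5-/- over Aqp5+/+, ranged from 0.27 to 1.42. In 3 of the 10 (30%) every Aqp5-/- library lay above every Aqp5+/+ library, beside 6.93% of all genes tested.

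Of the 45 amino acid catabolism genes 1 fell and 0 rose in Aqp5-/- livers at an adjusted p under 0.05 in the quasi-likelihood test of edgeR. The gene that fell was Ddc, which encodes aromatic L-amino acid decarboxylase, the vitamin B6 enzyme that makes dopamine and serotonin. In whole liver a smaller share of cells that express a gene and less of its RNA per cell cannot be told apart. The share of genes called was 2.22% of the 45 in the lower direction, against 0.178% of the 12353 genes tested, and in the higher direction 0 of 45, against 0.154%. Before adjustment 6 of the 45 genes had a p under 0.05, all 6 of them lower in Aqp5-/- livers. These were 13.3% of the 45 genes, beside 4.48% of all genes tested in that direction, and in the higher direction there were 0 of 45, beside 4.30%. The 6 were not spread evenly: 4 were among the 8 genes of aromatic amines and aldehydes, 1 was a histidine gene and 1 an aminotransferase of the last group. The median log2 fold change of the 45 genes, Aqp5-/- over Aqp5+/+, was -0.15, against 0.011 over all 12353 genes. Of the 45 genes 28 (62.2%) lay below 0 and 17 above, where 49.0% of all 12353 genes lay below 0.

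In 7 of the 45 genes every Aqp5-/- library lay below every Aqp5+/+ library, and in none did every Aqp5-/- library lie above. The 7 genes were Ddc, Aox3, Aox1, Agxt2, Ftcd, Tdo2 and Haao, or 15.6% of the 45, where 7.80% of all genes tested were separated in that direction and 6.93% in the other. Of the 7, 3 belong to the 8 genes of aromatic amines and aldehydes. DESeq2, a second count test, called 4 of the 45 genes lower and 0 higher, which is 8.89% of them where it called 0.925% of the 13303 genes it gave an adjusted p. These were Ddc, Aox3, Aox1 and Agxt2, an amine-forming decarboxylase, a pair of aldehyde oxidases and a mitochondrial aminotransferase. Library totals alone moved the median of all genes to 0.17 and that of the 45 genes to 0.0070, and scaling to hepatocyte markers moved them to 0.28 and 0.10, so that the 45 genes lay below all genes by about the same amount under each scaling while their median changed sign.

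**Figure D1:**
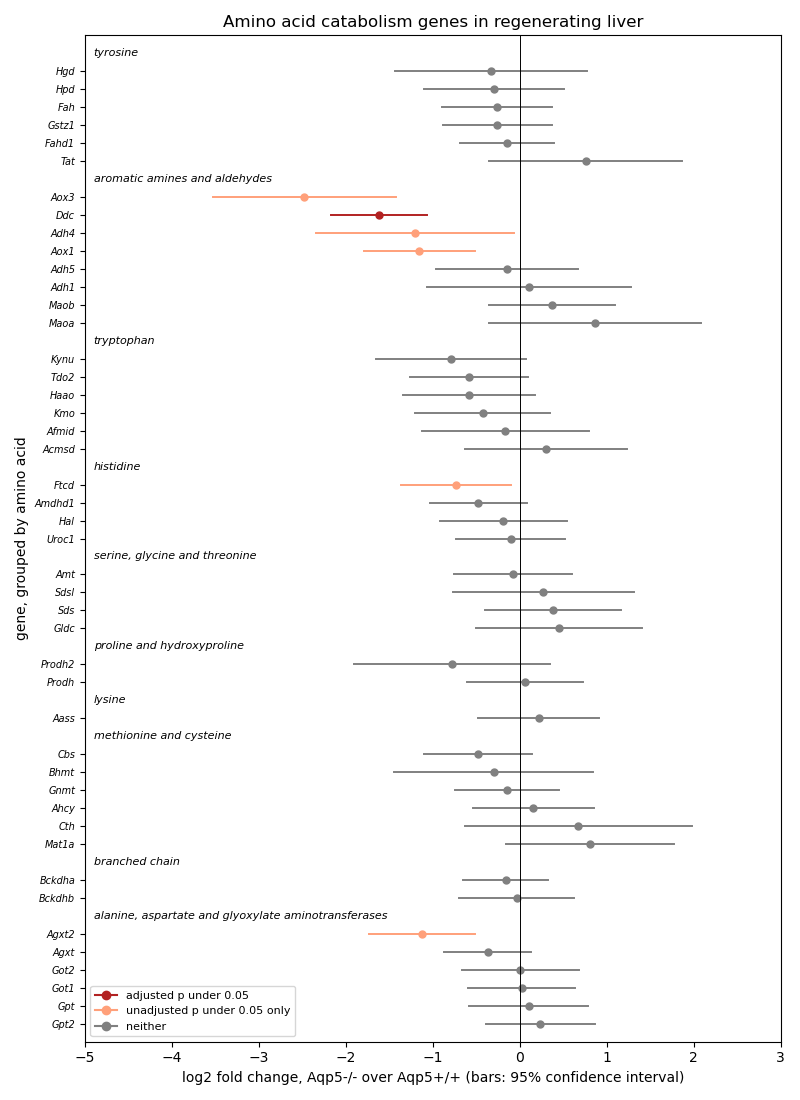
The log2 fold change, Aqp5-/- over Aqp5+/+, of each of the 45 genes (points, x axis) is plotted with its 95% confidence interval (bars). Genes are grouped by amino acid, with those of aromatic amines and aldehydes in a group of their own. Ddc alone passed the adjusted threshold, Aox3, Agxt2, Aox1, Ftcd and Adh4 had an unadjusted p under 0.05, and the intervals of the other 39 genes include 0.

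Ddc was measured at 20.3, 16.3 and 24.3 CPM in Aqp5-/- livers, against 69.2, 67.3 and 51.2 CPM in Aqp5+/+ livers. All 3 Aqp5-/- libraries were below the lowest Aqp5+/+ library, Aqp5+/+ replicate 3, with no overlap. The counts behind these values were 250, 188 and 409 in Aqp5-/- livers, against 826, 448 and 629 in Aqp5+/+ livers. On the log2 scale the fold change was -1.62 (standard error 0.24), a level 3.07-fold lower in Aqp5-/- livers, with adjusted p = 0.0403 in edgeR (Benjamini-Hochberg) and 1.24e-05 in DESeq2. The edgeR call was held by a narrow margin: the adjusted p was 0.0452 without Aqp5-/- replicate 3, but 0.174 and 0.165 when Aqp5-/- replicate 1 or 2 was left out. Leaving out Aqp5+/+ replicate 1, 2 or 3 gave adjusted p-values of 0.262, 0.0906 and 0.0761 in edgeR. The adjusted p was also 0.0876 with library totals alone and 0.199 with scaling to hepatocyte markers, and the log2 fold change stayed between -1.77 and -1.34 in all 14 alternatives. Genotype and the sex-linked difference cannot be told apart in this result. The part of the macrophage and neutrophil markers, which summed higher in the same libraries, was not tested, nor was that of the other cell type markers.

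Ddc lies on the minus strand of chromosome 11 from 11814101 to 11898144 in GRCm38. Each of 2 annotated start sites of Ddc has a promoter window in RefSeq (GRCm38.p6), and the 250 bases before each are shown because Ddc is the gene that passed the test. Capitals mark the matches to the motifs searched.
Ddc, outer start (chr11:11898145-11898394, minus strand): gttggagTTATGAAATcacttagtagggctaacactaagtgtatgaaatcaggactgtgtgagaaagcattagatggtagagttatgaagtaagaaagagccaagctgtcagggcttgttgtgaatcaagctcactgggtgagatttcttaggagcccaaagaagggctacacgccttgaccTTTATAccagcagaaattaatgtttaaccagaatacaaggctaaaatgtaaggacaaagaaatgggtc
Ddc, inner start (chr11:11890409-11890658, minus strand): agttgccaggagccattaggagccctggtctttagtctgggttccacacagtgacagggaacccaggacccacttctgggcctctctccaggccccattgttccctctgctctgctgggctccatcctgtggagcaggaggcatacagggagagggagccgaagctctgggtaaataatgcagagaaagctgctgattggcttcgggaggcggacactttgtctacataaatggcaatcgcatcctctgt
Both windows, with the 50 bases after each start, were searched on both strands for TATAAA, the cyclic AMP response element TGACGTCA, the glucocorticoid receptor half-site TGTTCT, the FoxA motif TGTTTAC, the C/EBP motif TTNNGNAAT, the HNF4 motif CAAAGTCCA, the HNF1 motif and the STAT5 motif TTCNNNGAA. The outer window held 2 matches, which do not overlap: TTNNGNAAT on the plus strand of the window from base -243 to -235 before the start, and TATAAA on the opposite strand from base -68 to -63. TTNNGNAAT was in 11.5% of all 32851 promoter windows of this length and TATAAA in 13.6%. The inner window held none of these motifs. The glucocorticoid receptor half-site was in 19% of all windows, the STAT5 motif in 8.30%, FoxA in 3.65%, the cyclic AMP response element in 1.79%, HNF4 in 0.475% and HNF1 in 0.00913%. Promoter windows were given for 38 of the 45 genes, of which 8 held TATAAA, 7 the C/EBP motif and 5 the half-site. A match is only a string of letters, and no binding was measured.

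Among the other enzymes of aromatic amines and aldehydes, both aldehyde oxidases were lower in every Aqp5-/- library. These are molybdenum and flavin enzymes that oxidize aldehydes and nitrogen heterocycles. Aox3 had 376, 378 and 157 CPM in Aqp5-/- livers, against 1639.6, 2381 and 1060.2 CPM in Aqp5+/+ livers. The Aqp5-/- values were all under the lowest Aqp5+/+ value, and within Aqp5-/- livers replicate 3 was the lowest. Its log2 fold change was -2.48 (standard error 0.46), 5.58-fold lower in Aqp5-/- livers and the largest among the 45 genes (unadjusted p = 5.39e-04, adjusted p = 0.121, edgeR). DESeq2 gave an adjusted p = 5.07e-07, and edgeR with scaling to hepatocyte markers 0.0256. Without Aqp5-/- replicate 3 the log2 fold change was -2.17.

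Aox1 had 202, 183 and 164 CPM in Aqp5-/- livers, against 487, 448 and 287 CPM in Aqp5+/+ livers, again with no overlap. Between genotypes the log2 fold change was -1.15 (standard error 0.28), with an adjusted p = 0.256 from edgeR and 0.00704 from DESeq2. The 2 genes lie in tandem on the plus strand of chromosome 1, Aox1 from 58029931 to 58106413 and Aox3 from 58113130 to 58200698. They are paralogs, and how reads that match both were counted is not given in the sources used here. Male-biased liver genes were lower in the same libraries, as given above, and genotype and sex-linked expression cannot be told apart for either gene.

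**Figure D2:**
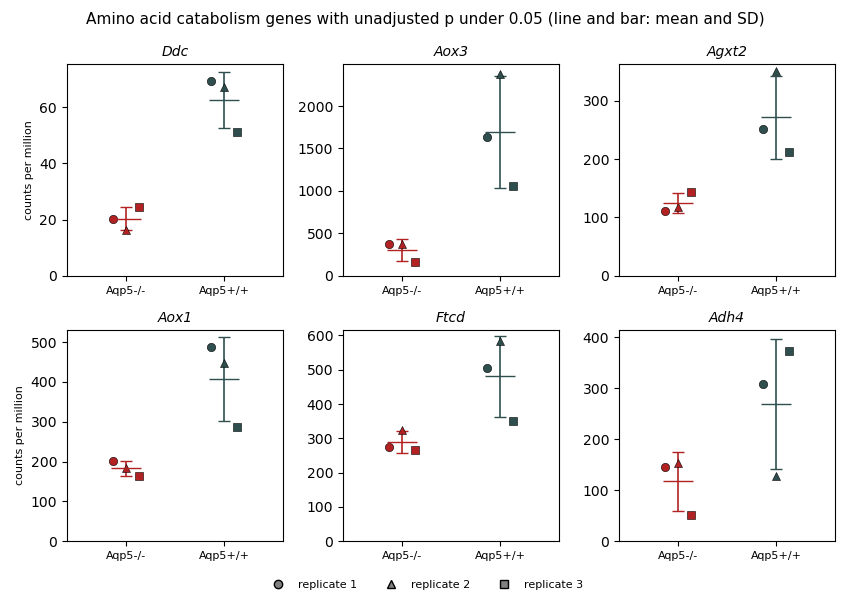
The level in CPM (y axis, from 0) of the 6 genes with an unadjusted p under 0.05 is plotted for each library, with Aqp5-/- left of Aqp5+/+, and with the mean and SD as line and bar. In Ddc, Aox3, Agxt2, Aox1 and Ftcd the highest Aqp5-/- library lies under the lowest Aqp5+/+ library, and in Adh4 Aqp5+/+ replicate 2, at 128 CPM, lies below Aqp5-/- replicates 1 and 2.

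The 3 alcohol dehydrogenases of the set lie in a cluster on chromosome 3, and none of them passed the test. Adh4, a class II enzyme, had 146, 154 and 51.5 CPM in Aqp5-/- livers, against 308, 128 and 373 CPM in Aqp5+/+ livers. Aqp5-/- replicate 3 and Aqp5+/+ replicate 2 were the lowest of their genotypes, and the groups overlapped. The log2 fold change was -1.20 (standard error 0.50, unadjusted p = 0.0408, adjusted p = 0.545, edgeR). Adh1, the abundant class I enzyme, was at 1475 ± 598 CPM in the Aqp5-/- libraries and 1371 ± 725 CPM in the Aqp5+/+ libraries (SD, n = 3 each), with a log2 fold change of 0.11 and a 95% interval of -1.07 to 1.28, and it was also lowest in those 2 libraries. Adh5, the class III enzyme that oxidizes the glutathione adduct of formaldehyde, had a log2 fold change of -0.14 (interval -0.96 to 0.67) with TMM and 0.024 with library totals alone. The differences between the 3 genes were not tested.

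The monoamine oxidases of the outer mitochondrial membrane, which lie side by side on the X chromosome, had log2 fold changes above 0 and did not pass the test. Maob was at 168 ± 49.4 CPM in the Aqp5-/- libraries and 130.0 ± 40.2 CPM in the Aqp5+/+ libraries (SD, n = 3 each), with a log2 fold change of 0.37 (interval -0.35 to 1.09). Maoa was the lowest of the 45 genes in level per length, at 9.49, 15.6 and 10.5 CPM in Aqp5-/- livers, against 5.36, 2.25 and 11.6 CPM in Aqp5+/+ livers, and had a log2 fold change of 0.87 (interval -0.35 to 2.08). Aqp5-/- and Aqp5+/+ libraries overlapped for both.

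The main chain of tyrosine degradation held no gene that passed the test by edgeR or DESeq2, or that had an unadjusted p under 0.05. Tat, the aminotransferase that opens it, had 1861, 1562 and 3037 CPM in Aqp5-/- livers, against 538, 1421 and 1854 CPM in Aqp5+/+ livers. Its highest value was in Aqp5-/- replicate 3 and its lowest in Aqp5+/+ replicate 1, and the other values overlapped. On the log2 scale the fold change was 0.76 (standard error 0.49, interval -0.35 to 1.87), with an adjusted p = 0.661 from edgeR. Tat ranked second among the 45 genes in Aqp5-/- livers by level per length, at 895 ± 324 in Aqp5-/- and 528 ± 279 in Aqp5+/+ livers (CPM per kb of exon, SD, n = 3 each).

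The 4 enzymes that follow Tat had log2 fold changes between -0.33 and -0.26. Hpd, 4-hydroxyphenylpyruvate dioxygenase, had 945, 1374 and 623 CPM in Aqp5-/- livers, against 1030.2, 1159.6 and 1414 CPM in Aqp5+/+ livers, with a log2 fold change of -0.29 (interval -1.10 to 0.51). Fah, which splits fumarylacetoacetate in the last step, had 409, 515 and 353 CPM in Aqp5-/- livers, against 502, 419.7 and 609 CPM in Aqp5+/+ livers, with a log2 fold change of -0.26 (interval -0.90 to 0.37). The groups overlapped for both, with Aqp5-/- replicate 3 the lowest library for each. Hgd, homogentisate dioxygenase, was at 10.1 CPM in Aqp5-/- replicate 3, against 31.1 to 48.2 CPM in the other 5 libraries, and its log2 fold change was -0.33, and 0.094 without that library. Gstz1, maleylacetoacetate isomerase, was at 396 ± 43.8 CPM in the Aqp5-/- libraries and 473 ± 104 CPM in the Aqp5+/+ libraries (SD, n = 3 each). Fahd1, an acylpyruvate hydrolase and oxaloacetate decarboxylase related to Fah, was at 24.2 ± 3.97 CPM in the Aqp5-/- libraries and 26.7 ± 4.17 CPM in the Aqp5+/+ libraries (SD, n = 3 each). By level per length the steps differed within both genotypes: Hpd was at 461 ± 177 in Aqp5-/- and 565 ± 91.8 in Aqp5+/+ livers and Hgd at 12.2 ± 7.33 in Aqp5-/- and 15.3 ± 3.28 in Aqp5+/+ livers (CPM per kb of exon, SD, n = 3 each).

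**Figure D3:**
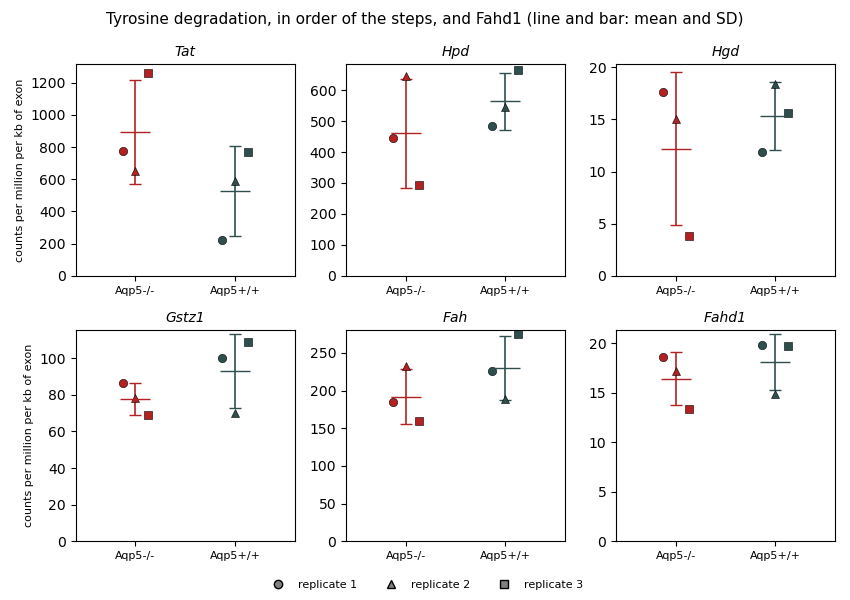
Levels per length (y axis, CPM per kb of exon, from 0) of the tyrosine degradation enzymes in order of their steps, and of Fahd1, are plotted for each library, with Aqp5-/- left of Aqp5+/+, and with the mean and SD as line and bar. The libraries of the genotypes overlap in all 6 panels, and Aqp5-/- replicate 3 is the highest for Tat and the lowest for the other 5 genes.

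All but 1 of the 6 tryptophan genes had a log2 fold change below 0, as had 49.0% of all genes tested, and none passed the test. The median of the 6 was -0.50. Tdo2, tryptophan 2,3-dioxygenase, which opens the kynurenine pathway, had 655, 695 and 763 CPM in Aqp5-/- livers, against 778, 1289 and 1101 CPM in Aqp5+/+ livers. The Aqp5-/- libraries were all below the lowest Aqp5+/+ library, by 763 against 778 CPM for the nearest pair, and the log2 fold change was -0.58 (standard error 0.30, unadjusted p = 0.0812, adjusted p = 0.593, edgeR). Haao, 3-hydroxyanthranilate dioxygenase, was also without overlap, at 167 ± 68.9 CPM in the Aqp5-/- libraries and 249.5 ± 17.7 CPM in the Aqp5+/+ libraries (SD, n = 3 each), with the closest values being 229.9 CPM in Aqp5-/- replicate 2 and 230.7 CPM in Aqp5+/+ replicate 2, and its log2 fold change was -0.58 (interval -1.34 to 0.18). Kynu, kynureninase, was at -0.79 and Kmo, kynurenine 3-monooxygenase, at -0.43 on the same log2 scale, with groups that overlapped. Afmid, kynurenine formamidase, was at -0.16, and 0.20 without Aqp5-/- replicate 3. Acmsd, which diverts the pathway from NAD synthesis, was the exception at 0.31 (interval -0.62 to 1.24).

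The 4 histidine genes, which carry histidine to glutamate and a one-carbon unit, all had log2 fold changes below 0, as had 49.0% of all genes tested. Ftcd, the last enzyme, which passes the one-carbon unit to tetrahydrofolate, had 276, 325 and 267 CPM in Aqp5-/- livers, against 506, 584 and 351 CPM in Aqp5+/+ livers. There was no overlap, and the nearest pair was Aqp5-/- replicate 2 and Aqp5+/+ replicate 3. Between genotypes the log2 fold change was -0.73 (standard error 0.28, unadjusted p = 0.0286, adjusted p = 0.512, edgeR). Hal, histidine ammonia-lyase, the first enzyme, had 483, 427 and 308 CPM in Aqp5-/- livers, against 331, 437 and 620.5 CPM in Aqp5+/+ livers, with overlap and a log2 fold change of -0.19 (interval -0.92 to 0.54). Uroc1, urocanase, and Amdhd1, imidazolonepropionase, were at -0.11 and -0.47, and those of Hal and Uroc1 were 0.087 and 0.12 with scaling to hepatocyte markers.

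In the serine, glycine and threonine group 3 of 4 genes had log2 fold changes above 0, and none passed the test. Sds, serine dehydratase, which feeds gluconeogenesis from serine, had 155, 148 and 152 CPM in Aqp5-/- livers, against 61.6, 119 and 168 CPM in Aqp5+/+ livers. Aqp5+/+ replicate 1 was the lowest library and Aqp5+/+ replicate 3 the highest, so the Aqp5-/- libraries lay within the Aqp5+/+ range, and the log2 fold change was 0.38 (interval -0.40 to 1.16). Gldc, the decarboxylase of the glycine cleavage system, had 138, 103 and 255 CPM in Aqp5-/- livers, against 68.4, 168 and 127 CPM in Aqp5+/+ livers, with the highest value in Aqp5-/- replicate 3. Its log2 fold change was 0.45 (interval -0.50 to 1.41), and -0.0035 without that library. Amt, its aminomethyltransferase partner, was at -0.079, and 0.084 with library totals alone. Sdsl, a relative of Sds, was at 5.49 ± 2.18 CPM in the Aqp5-/- libraries and 4.52 ± 1.75 CPM in the Aqp5+/+ libraries (SD, n = 3 each).

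Prodh, the mitochondrial proline dehydrogenase, had 91.0, 159.9 and 154 CPM in Aqp5-/- livers, against 141, 95.5 and 151 CPM in Aqp5+/+ livers, with overlap and a log2 fold change of 0.062 (interval -0.61 to 0.73). Its paralog for hydroxyproline, Prodh2, was at 145 ± 97.4 CPM in the Aqp5-/- libraries and 249 ± 46.3 CPM in the Aqp5+/+ libraries (SD, n = 3 each), with the lowest value, 50.1 CPM, in Aqp5-/- replicate 3. Its log2 fold change was -0.78 (interval -1.91 to 0.35). Aass, the first enzyme of lysine breakdown in mitochondria, had 395, 424 and 513 CPM in Aqp5-/- livers, against 353, 276 and 518 CPM in Aqp5+/+ livers. The groups overlapped, and the log2 fold change was 0.22 (interval -0.48 to 0.91).

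Mat1a, which makes S-adenosylmethionine from methionine in hepatocytes, had the highest level per length of the 45 genes in both genotypes. It had 3446, 3502 and 5758 CPM in Aqp5-/- livers, against 2141, 1504 and 3629 CPM in Aqp5+/+ livers. The lowest values were in Aqp5+/+ replicates 1 and 2, and Aqp5+/+ replicate 3 was above Aqp5-/- replicates 1 and 2. The log2 fold change was 0.80 (standard error 0.42, unadjusted p = 0.0915, adjusted p = 0.605, edgeR). Per length it was at 1221 ± 380.3 in Aqp5-/- and 699 ± 315 in Aqp5+/+ livers (CPM per kb of exon, SD, n = 3 each).

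The enzymes after Mat1a had log2 fold changes on both sides of 0, and none passed the test. Gnmt, glycine N-methyltransferase, which uses up S-adenosylmethionine, had 389, 499 and 461 CPM in Aqp5-/- livers, against 476, 428 and 586 CPM in Aqp5+/+ livers, with a log2 fold change of -0.14 (interval -0.74 to 0.45), and 0.016 with library totals alone. Cbs, cystathionine beta-synthase, had 246, 305 and 219.7 CPM in Aqp5-/- livers, against 274, 423 and 376 CPM in Aqp5+/+ livers, with a log2 fold change of -0.48 (interval -1.10 to 0.14). The groups overlapped for both. Cth, cystathionine gamma-lyase, the next step to cysteine, was at 423 ± 257 CPM in the Aqp5-/- libraries and 265 ± 182 CPM in the Aqp5+/+ libraries (SD, n = 3 each), with the highest value in Aqp5-/- replicate 3 and the lowest in Aqp5+/+ replicate 2, and a log2 fold change of 0.68 (interval -0.63 to 1.98). Ahcy, which hydrolyses S-adenosylhomocysteine, and Bhmt, which returns homocysteine to methionine, were at 0.16 and -0.30. The differences between these genes were not tested.

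Bckdha, the E1 alpha subunit of the branched chain keto acid dehydrogenase, had 76.8, 91.0 and 61.5 CPM in Aqp5-/- livers, against 89.0, 83.0 and 84.3 CPM in Aqp5+/+ livers, with overlap. Its log2 fold change was -0.16 (interval -0.65 to 0.33), one of the narrowest intervals among the 45 genes. Bckdhb, the beta subunit, was at -0.036 (interval -0.69 to 0.62).

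Of the 6 aminotransferases in the last group 1 differed before adjustment. Agxt2, a mitochondrial alanine-glyoxylate aminotransferase that also breaks down asymmetric dimethylarginine, had 111, 119 and 144 CPM in Aqp5-/- livers, against 252, 350.4 and 212 CPM in Aqp5+/+ livers. There was no overlap, and the Aqp5-/- values lay close together. On the log2 scale the fold change was -1.13 (standard error 0.27, unadjusted p = 0.00259, adjusted p = 0.249 in edgeR and 0.00997 in DESeq2). Agxt, the peroxisomal alanine-glyoxylate aminotransferase whose loss causes primary hyperoxaluria in humans, had 83.7, 96.8 and 72.9 CPM in Aqp5-/- livers, against 113, 91.5 and 123 CPM in Aqp5+/+ livers. Aqp5+/+ replicate 2 lay below Aqp5-/- replicate 2, and the log2 fold change was -0.37 (interval -0.87 to 0.13).

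The aminotransferases measured in the clinic as ALT and AST did not pass the test, and their intervals include changes in either direction. Gpt, cytosolic alanine aminotransferase, had 141, 174 and 195 CPM in Aqp5-/- livers, against 180.1, 98.7 and 197 CPM in Aqp5+/+ livers, with a log2 fold change of 0.10 (interval -0.59 to 0.79), and -0.15 without Aqp5+/+ replicate 2. Gpt2, its mitochondrial form, was at 543 ± 129 CPM in the Aqp5-/- libraries and 462 ± 37.5 CPM in the Aqp5+/+ libraries (SD, n = 3 each). Got1 and Got2, the cytosolic and mitochondrial aspartate aminotransferases, had log2 fold changes of 0.025 (interval -0.59 to 0.64) and 0.0083 (interval -0.67 to 0.68).

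Libraries of 1 genotype also differed over the 45 genes. Aqp5-/- replicate 3 was the lowest of the 6 libraries for 20 of the 45 genes and the highest for 9. Among Aqp5+/+ livers replicate 2 was the lowest of its genotype for 26 genes, while replicate 3 was the highest of all 6 libraries for 17 genes and the lowest of all for 0. On a log2 scale relative to the Aqp5+/+ mean, the median of the 45 genes was -0.13, -0.029 and -0.42 in Aqp5-/- replicates 1 to 3, against -0.047, -0.20 and 0.25 in Aqp5+/+ replicates 1 to 3. The 2 medians nearest 0 were of different genotypes, and the genotypes overlapped. Pericentral hepatocyte markers summed to 2848 to 10751 CPM in the Aqp5-/- libraries and 11582 to 13714 CPM in the Aqp5+/+ libraries, with the lowest value in Aqp5-/- replicate 3, and their part in these differences was not tested. Without Aqp5-/- replicate 3 the median log2 fold change of the 45 genes was -0.052, and without Aqp5+/+ replicate 3 it was -0.058.

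**Figure D4:**
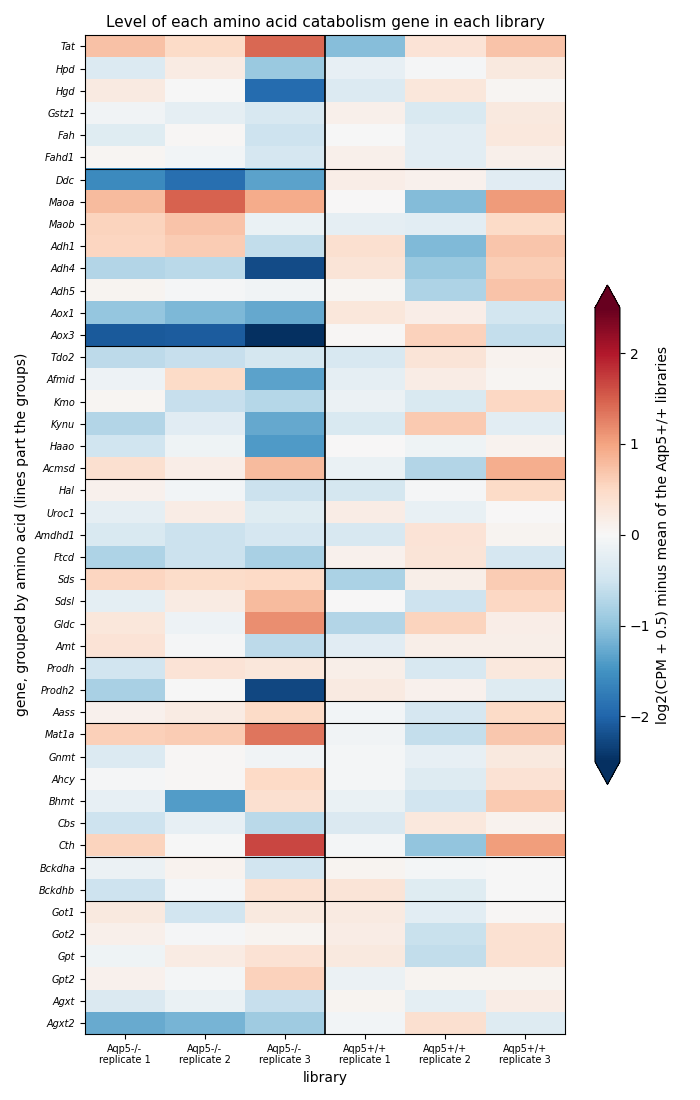
The level of each of the 45 genes (rows) in each library (columns, Aqp5-/- on the left) is plotted as log2(CPM + 0.5) minus the mean of the Aqp5+/+ libraries. Colors run from blue (lower) to red (higher), with values past 2.5 in either direction drawn in the end colors. Rows are grouped by amino acid, with aromatic amines and aldehydes in a group of their own. The rows of Ddc, Aox3, Aox1 and Agxt2 are blue in all 3 Aqp5-/- columns, and those of Hgd, Adh4 and Prodh2 are darkest in Aqp5-/- replicate 3.

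Other genes of the same pathways were taken from lists outside the 45 genes, with 96 genes named, 93 found and 84 tested. By edgeR's adjusted p none of the 84 rose and none fell. DESeq2 called 1 lower, Csad, the decarboxylase on the way from cysteine to taurine. Over all 13303 genes that DESeq2 gave an adjusted p, it called 0.925% lower. Before adjustment 8 of the 84 had a p under 0.05, all 8 lower in Aqp5-/- livers, which is 9.52% beside 4.48% of all genes tested. The libraries did not overlap in that direction for 9 of the 84, or 10.7%, a share near the 7.80% of all genes tested. Their median log2 fold change was -0.22, against 0.011 over all genes tested. Csad had 10.2, 19.0 and 14.2 CPM in Aqp5-/- livers, against 18.8, 106 and 50.5 CPM in Aqp5+/+ livers, and Aqp5+/+ replicate 1 lay below Aqp5-/- replicate 2. Its log2 fold change was -2.00, with an adjusted p = 0.333 from edgeR and 0.0136 from DESeq2.

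Aadat, the aminotransferase of kynurenine and aminoadipate, had 51.0, 46.5 and 47.3 CPM in Aqp5-/- livers, against 72.9, 82.4 and 99.6 CPM in Aqp5+/+ livers, without overlap and with a log2 fold change of -0.82 (edgeR, adjusted p = 0.276).

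In each of the other lists the gene with the lowest p did not pass the test. Grhpr, glyoxylate reductase, of the hydroxyproline list had 108, 83.1 and 50.1 CPM in Aqp5-/- livers, against 114, 161 and 169 CPM in Aqp5+/+ livers. Acadsb, the short/branched chain acyl-CoA dehydrogenase of isoleucine breakdown, had 115, 137 and 83.0 CPM in Aqp5-/- livers, against 167, 151 and 181 CPM in Aqp5+/+ livers. For both genes every Aqp5-/- library lay below every Aqp5+/+ library, with log2 fold changes of -0.88 and -0.57 (edgeR, adjusted p = 0.477 and 0.564). Hykk, hydroxylysine kinase, of the lysine list had 151, 164 and 91.8 CPM in Aqp5-/- livers, against 163, 305 and 223 CPM in Aqp5+/+ livers. Sardh, sarcosine dehydrogenase, of the glycine list had 351, 358 and 227 CPM in Aqp5-/- livers, against 542, 333 and 628 CPM in Aqp5+/+ livers. The groups overlapped for Hykk by Aqp5-/- replicate 2 and for Sardh by Aqp5+/+ replicate 2, and the log2 fold changes were -0.76 and -0.68 (edgeR, adjusted p = 0.559 and 0.583). Agmat of the alanine and aspartate list had 51.1, 77.7 and 50.1 CPM in Aqp5-/- livers, against 98.8, 71.0 and 86.8 CPM in Aqp5+/+ livers. Cndp2, a dipeptidase, of the histidine list had 47.7, 41.7 and 66.0 CPM in Aqp5-/- livers, against 45.3, 21.0 and 38.2 CPM in Aqp5+/+ livers. Both overlapped between genotypes, with log2 fold changes of -0.52 and 0.57 (edgeR, adjusted p = 0.583 and 0.619).

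None of 16 amino acid transporters and none of 15 tested hormone receptors and transcription factors of these pathways passed the test by edgeR or DESeq2. Before adjustment 1 transporter (6.25%) was higher at a p under 0.05 in edgeR, and in the other list 1 gene was higher and 1 lower (6.67% each). Over all genes tested the shares were 4.30% higher and 4.48% lower. The median log2 fold change was -0.057 for the transporters and -0.074 for the other list. The lowest p among transporters was that of Slc7a8, a neutral amino acid exchanger, which had 14.7, 13.3 and 25.1 CPM in Aqp5-/- livers, against 9.05, 8.86 and 11.7 CPM in Aqp5+/+ livers, without overlap and with a log2 fold change of 0.84 (edgeR, adjusted p = 0.514). Gcgr, the glucagon receptor, had 141, 162 and 64.3 CPM in Aqp5-/- livers, against 219, 337 and 156 CPM in Aqp5+/+ livers, with overlap and a log2 fold change of -0.95 (edgeR, adjusted p = 0.564). Nr3c1, the glucocorticoid receptor, was at 156 ± 26.8 CPM in the Aqp5-/- libraries and 163 ± 25.3 CPM in the Aqp5+/+ libraries (SD, n = 3 each), with a log2 fold change of -0.069 (interval -0.62 to 0.48).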

How the data were processed

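Liver RNA of 3 Aqp5-/- and 3 Aqp5+/+ libraries was sequenced after depletion of rRNA, with different kits named in the labels and in the study's methods. The deposited values are raw counts, which the authors obtained with HTSeq after cutadapt 1.9.3 and HISAT2 2.0.4 on mm10 (versions from the submitters' processing notes). A second block of 6 columns with log2 values normalized by the authors was not used, since its column names repeat. Genes were kept by filterByExpr (minimum count 10, minimum total 15), scaled by TMM and compared with edgeR 4.0.16 in R 4.3.3 (quasi-likelihood, robust, 2-sided, Benjamini-Hochberg over 12353 genes, no covariate). Confidence intervals of 95% are from that fit. Exon lengths and coordinates are from GENCODE on GRCm38. The fit was tested on simulated data. Aqp5 itself was not analysed here.

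The 45 genes and all lists were chosen with earlier results of these data known. Values per library were given for genes with an adjusted or unadjusted p under 0.05 or an absolute log2 fold change of at least 1, for 15 key enzymes, and for the gene of lowest p in each list of other pathway, transporter, control and hormone-responsive genes, except in the list of phenylalanine and tyrosine, where it is not reported here. Of 289 list genes, 6 were not matched. Alternatives were DESeq2 1.42.0, limma 3.58.1, other scalings and filters, a replicate block, and fits without each library in turn.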

Additional observations from a re-analysis of the deposited data

How the results depend on the processing

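The number of the 45 genes called by edgeR was 1 (Ddc). It was 4 with DESeq2, 0 with library totals alone and 0 with the replicate block, and 0 to 1 when each library was left out. With scaling to hepatocyte markers it was 1 as well, but that gene was Aox3. Among the other genes of the same pathways 0 were called by edgeR and 1 by DESeq2. The median log2 fold change of the 45 genes was -0.15, and 0.10 with scaling to hepatocyte markers, beside 0.28 for all genes. Over 630 gene values in 14 alternatives, 575 kept their direction and their side of the threshold, 8 lost the call, 4 gained it and 43, from 20 genes, changed direction. With library totals alone these were, as log2 fold changes, Adh5 at 0.024, Amt at 0.084, Bckdhb at 0.12, Fahd1 at 0.0070, Gnmt at 0.016 and Uroc1 at 0.044. With scaling to hepatocyte markers they were Adh5 at 0.16, Afmid at 0.010, Amt at 0.16, Bckdha at 0.064, Bckdhb at 0.24, Bhmt at 0.10, Fahd1 at 0.095, Gnmt at 0.13, Gstz1 at 0.0023, Hal at 0.087 and Uroc1 at 0.12. With each library left out in turn the log2 fold change ranged over -0.27 to 0.45 for Adh1, -0.45 to 0.28 for Adh5, -0.64 to 0.20 for Afmid, -0.029 to 0.36 for Ahcy, -0.34 to 0.15 for Amt, -0.28 to 0.16 for Bckdhb, -0.76 to 0.094 for Bhmt, -0.0035 to 0.76 for Gldc, -0.097 to 0.22 for Got1, -0.23 to 0.20 for Got2, -0.15 to 0.28 for Gpt, -0.38 to 0.079 for Hal, -0.70 to 0.094 for Hgd, -0.12 to 0.27 for Prodh and -0.085 to 0.59 for Sdsl. The cause of these changes was not tested.

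Libraries of the same number did not deviate together in every case, with correlations over genes of -0.054, 0.25 and 0.17 for replicates 1 to 3, so the replicate number was not treated as a pairing. Under the block Ddc had an adjusted p = 0.101 from edgeR, and the numbers of all genes called were 39 with the block and 41 without it. Over all genes the calls numbered 236 with DESeq2, and 4 without Aqp5-/- replicate 2 and 4 without Aqp5+/+ replicate 1. A planned fit of the authors' log2 values was not run. With 3 libraries per genotype the 95% intervals of 39 of the 45 genes include 0, which does not show equal levels.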

Other observations

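Several enzymes of amino acid breakdown are induced by glucocorticoids or glucagon, and of 10 other genes with that response 2 had an unadjusted p under 0.05, both higher in Aqp5-/- livers, beside 4.30% of all genes tested in that direction. Fkbp5, a co-chaperone of the glucocorticoid receptor, had 113, 112 and 229.7 CPM in Aqp5-/- livers, against 26.9, 48.5 and 42.4 CPM in Aqp5+/+ livers. The groups did not overlap, and the log2 fold change was 1.95 (standard error 0.36), with an adjusted p = 0.121 from edgeR and 7.22e-05 from DESeq2. Per1, a clock gene, had 107, 133 and 96.2 CPM in Aqp5-/- livers, against 22.5, 45.5 and 60.3 CPM in Aqp5+/+ livers, also without overlap, with a log2 fold change of 1.39 (adjusted p = 0.276 in edgeR and 0.0194 in DESeq2). The other 8 had log2 fold changes on both sides of 0, from -1.14 for G6pc to 1.01 for Mt1. Aqp5+/+ replicate 1 was the lowest library for Pck1, at 1039 CPM. Among the 45 genes it was the lowest for 4, namely Tat, Sds, Gldc and Gpt2. The hour of day and the feeding state at which livers were taken are not given in the sources used here.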
